A study of Mus musculus with 16 samples.

Results

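The 10 genes described here are those of the mouse MHC class II presentation pathway that the deposited count table carries under the symbols H2-Aa, H2-Ab1, H2-Eb1, Cd74, Ciita, H2-DMa, H2-DMb1, H2-DMb2, H2-Oa and H2-Ob. They were picked by symbol from 24028 genes, with their response to entinostat in these libraries already known, and H2-Ob was set apart from the other 9 for the same reason. All 10 passed the filter on low counts. RNA came from cells sorted as live, CD45.2+, CD8+ and CD4- from tumours of TS/A, a mouse mammary adenocarcinoma line injected into the second mammary pad of BALB/c mice. Treatment began on day 7 after injection and was given daily, as entinostat (ENT), an inhibitor of class I histone deacetylases, at 20 mg/kg or as vehicle. Of the 16 libraries, 4 came from entinostat-treated mice at day 17 after injection, 4 from vehicle-treated mice at day 17, 4 from entinostat-treated mice at day 10 and 4 from vehicle-treated mice at day 10. Day 17 lay 10 days and day 10 lay 3 days after the first dose. The labels do not say how many mice gave each library, or that libraries of a group came from separate mice.

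MHC class II molecules are alpha-beta pairs that carry peptides from endosomes to the cell surface, where CD4 T cells read them. Dendritic cells, B cells and macrophages make them constitutively or on activation. Mouse CD8 T cells are not known as a source of classical class II molecules. The invariant chain, Cd74, guards the groove until H2-DM helps to exchange its remnant for peptide, and H2-O, the pair of H2-Oa and H2-Ob, binds H2-DM and holds it back. Ciita is the co-activator that switches on most of this set through promoters that carry a conserved X box and Y box. H2-O is known for a narrower pattern, mainly B cells, thymic epithelium and some dendritic cells.

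The promoter sequences below are shown because many class II genes are known for an X box and a Y box ahead of their start, and because H2-Ob holds matching letters although its counts did not follow those of the classical genes. They come from the RefSeq promoter table of the GRCm38.p6 build, which spans 250 bases before to 50 bases after a start site and held 7 of the 10 genes. Capitals mark GATTGG, the core of the Y box, and AGNAACNNATGATG, an X-box-like pattern made of the letters that H2-Ob, H2-DMb1 and H2-Eb1 share, so these 3 match by construction. Both strands were searched and the patterns do not overlap.
H2-Ob, chr17:34238797-34238864, plus strand: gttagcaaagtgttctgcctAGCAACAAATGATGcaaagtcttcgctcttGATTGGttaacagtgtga
H2-Oa, chr17:34092285-34092352, plus strand: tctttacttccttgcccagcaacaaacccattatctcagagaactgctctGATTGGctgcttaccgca
H2-DMb1, chr17:34153079-34153146, plus strand: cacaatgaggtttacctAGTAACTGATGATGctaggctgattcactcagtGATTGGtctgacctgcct
H2-DMb2, chr17:34145108-34145175, plus strand: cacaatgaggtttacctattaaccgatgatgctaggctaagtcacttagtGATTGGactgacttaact
H2-Aa, chr17:34287855-34287922, minus strand: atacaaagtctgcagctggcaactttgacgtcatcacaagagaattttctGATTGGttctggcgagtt
H2-Eb1, chr17:34305757-34305824, plus strand: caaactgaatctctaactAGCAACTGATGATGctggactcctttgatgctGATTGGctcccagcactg
The Y-box core began 58 bases before the start in H2-Ob, 44 in H2-Oa, 62 in H2-DMb1, 91 in H2-DMb2, 49 in H2-Aa and 60 in H2-Eb1. GATTGG was found in 5292 of all 32851 promoters in the table (16.1%), and the X-box-like pattern in 8 (0.0244%). No promoter in the table other than those of H2-Ob, H2-DMb1 and H2-Eb1 held both. H2-DMa had 2 promoters in the table, of which 1 held GATTGG, 199 bases before its start, and is not shown. A match is a match of letters and does not show that a factor bound there.

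Total counts per library ran between 554593 and 3530961 with entinostat at day 17, 2842099 and 6975904 with vehicle at day 17, 2639019 and 5709243 with entinostat at day 10, and 3640768 and 4227704 with vehicle at day 10. Replicate 3 of entinostat day 17 was the library of 554593 counts and carries the largest counting error. Vehicle day 10 replicate 2 stood apart from its group, with 8 of the 9 genes other than H2-Ob below the group mean. The summed level of 8 CD8 T cell markers was 2857 (2269 to 3767) CPM with entinostat at day 17, 2260 (2075 to 2457) with vehicle at day 17, 2473 (2225 to 2734) with entinostat at day 10 and 2781 (2546 to 2893) with vehicle at day 10 (mean and range, n = 4 each). CPM is the count of a gene scaled to a common library total with TMM factors, and a gene is called where its adjusted p in edgeR's quasi-likelihood test over all 17414 tested genes was below 0.05.

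H2-Ob, the beta chain of H2-O, was high in 1 of the 4 groups. Its levels were 15.1, 8.89, 16.6 and 17.6 CPM in entinostat day 17 replicates 1 to 4, 12.6, 9, 17.2 and 11.7 CPM in vehicle day 17, 35, 54.1, 30.5 and 37.9 CPM in entinostat day 10 and 6.42, 4.67, 7.04 and 8.37 CPM in vehicle day 10. The 4 entinostat day 10 libraries were all above the other 12, and the 4 vehicle day 10 libraries were all below the other 12. Behind these values stood 94, 210, 99 and 212 counts with entinostat at day 10 and 21, 18, 24 and 32 counts with vehicle at day 10. Group means were 14.6 ± 3.92 CPM with entinostat at day 17, 12.6 ± 3.44 with vehicle at day 17, 39.4 ± 10.3 with entinostat at day 10 and 6.62 ± 1.54 with vehicle at day 10 (SD, n = 4). The fitted log2 fold change of entinostat over vehicle was 0.18 ± 0.32 (SE) at day 17 and 2.57 ± 0.33 at day 10, or 1.14-fold and 5.92-fold. These drug contrasts are the ones on which the gene was chosen, so they are given as a description without a p-value.

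**Figure D1:**
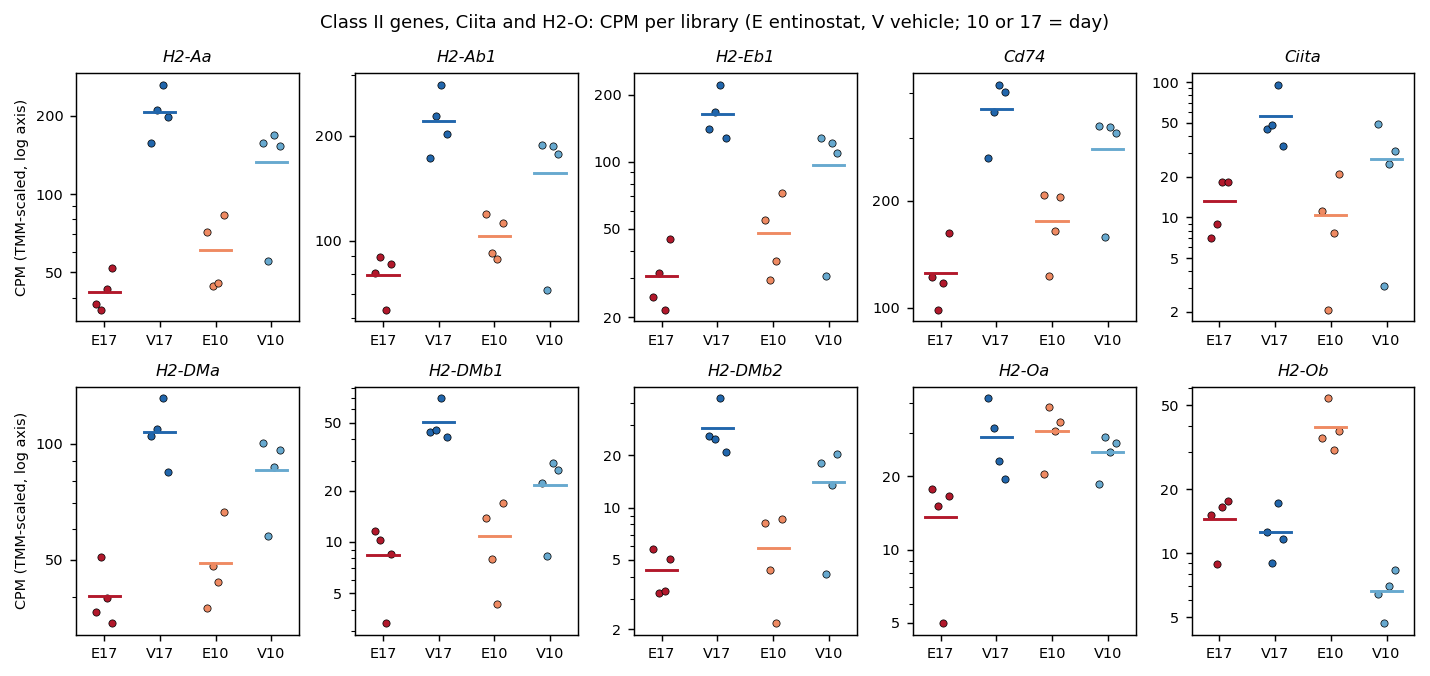
CPM of each of the 10 genes in each of the 16 libraries (log axis; points are libraries, lines are group means; E17 and V17 are entinostat and vehicle at day 17, E10 and V10 at day 10). H2-Ob is highest in the 4 entinostat day 10 libraries (30.5 to 54.1 CPM), while H2-Aa is lower in all entinostat day 17 libraries (35.8 to 51.9 CPM) than in all vehicle day 17 libraries (157 to 263 CPM).

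Within entinostat-treated tumours H2-Ob averaged 14.6 CPM at day 17 and 39.4 CPM at day 10, with no overlap between the groups. The log2 fold change of day 17 over day 10 was -1.45 ± 0.32 with entinostat and 0.93 ± 0.32 with vehicle, where all 4 day 17 libraries lay above all 4 day 10 libraries. The interaction term, the entinostat effect at day 17 minus that at day 10, was -2.38 ± 0.45 on the log2 scale. It ranged between -2.51 and -2.18 when any 1 library was left out, and was -2.35 with the replicate number as a block within each day and -2.43 with a block over all groups. H2-Ob was set apart for its entinostat effects at the 2 days, and the same libraries enter these contrasts, so they too are given as a description without a p-value. The interaction passed the threshold in the fit over all genes and missed it in 10 of 26 alternatives, both replicate blocks among them.

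H2-Oa, the alpha chain that pairs with H2-Ob, showed no such height at day 10. Its levels were 17.7, 15.1, 4.98 and 16.6 CPM with entinostat at day 17, 42, 31.5, 23.2 and 19.6 with vehicle at day 17, 20.5, 38.4, 30.5 and 33.2 with entinostat at day 10 and 18.6, 29, 25.2 and 27.5 with vehicle at day 10. The entinostat day 17 libraries were the lowest of the 16, and the other 3 groups overlapped. The lowest value, 4.98 CPM, rested on 3 counts in the shallowest library. The log2 fold change of entinostat over vehicle was -1.01 ± 0.32 at day 17 and 0.29 ± 0.31 at day 10. The log2 fold change of H2-Oa at day 17 over day 10 was -1.09 ± 0.32 with entinostat and 0.22 ± 0.31 with vehicle. These libraries also enter the drug contrasts on which the gene was chosen, so both values are given as a description without a p-value. The entinostat contrast passed the threshold in the fit over all genes and missed it in 9 of 27 alternatives. Of these, 6 left out 1 library each, namely replicate 2, 3 or 4 of entinostat day 17 or of entinostat day 10. The interaction for H2-Oa was -1.30 ± 0.45. H2-Oa overlaps BC051537, a long non-coding RNA gene, over 2856 bases, and the library kit does not mark strand, so reads of the pair cannot be told apart.

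The balance of the H2-O chains is given as a share of counts, without a test. H2-Ob made up 46.1, 37.1, 76.9 and 51.5% of the counts of the H2-O pair in the entinostat day 17 libraries and 23.1, 22.2, 42.7 and 37.4% in vehicle day 17. It made up 63.1, 58.5, 50 and 53.3% in entinostat day 10 and 25.6, 13.9, 21.8 and 23.4% in vehicle day 10. The 76.9% of entinostat day 17 replicate 3, the shallowest library, rested on 10 counts of H2-Ob and 3 of H2-Oa. At day 10 the groups did not overlap, and at day 17 they did. These are shares of counts, and the chains differ in length, so a share of 50% does not mean equal numbers of transcripts. Of all counts in the 10 genes, H2-Ob took 3.92 ± 1.04% with entinostat at day 17, 1.03 ± 0.218% with vehicle at day 17, 7.68 ± 3.03% with entinostat at day 10 and 0.831 ± 0.206% with vehicle at day 10 (mean ± SD, n = 4). The H2-O pair took 34.6 ± 6.46% of the counts of H2-DM and H2-O together with entinostat at day 17 and 18.5 ± 4.02% with vehicle at day 17. At day 10 it took 51.8 ± 7.4% with entinostat and 21.9 ± 7.39% with vehicle.

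**Figure D2:**
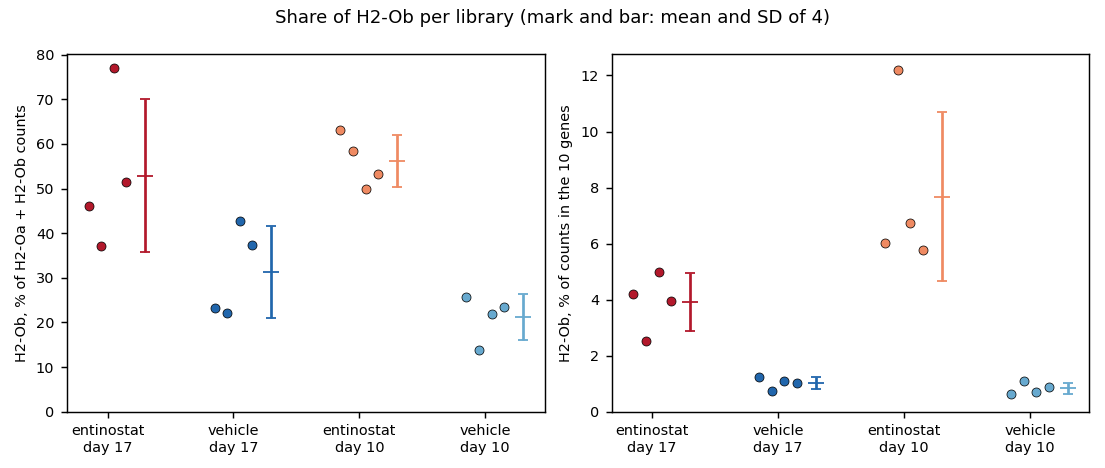
Share of H2-Ob per library, as a percent of the counts of H2-Oa and H2-Ob (left) and of all 10 genes (right); points are libraries, and the mark and bar are the mean and SD of 4. The 4 entinostat day 10 libraries lie between 50% and 63.1% on the left and the 4 vehicle day 10 libraries between 13.9% and 25.6%.

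The classical class II genes had lower group means with entinostat at both days, H2-Aa alone being called at day 10 as well as day 17. H2-Aa, the alpha chain of the I-A molecule, stood at 37.9, 35.8, 43.1 and 51.9 CPM with entinostat at day 17, 157, 209, 263 and 197 with vehicle at day 17, 71.4, 44.5, 45.6 and 83.1 with entinostat at day 10 and 157, 55.2, 168 and 152 with vehicle at day 10. The day 17 groups were far apart, while at day 10 vehicle replicate 2 fell among the entinostat libraries. Its log2 fold change of entinostat over vehicle was -2.30 ± 0.30 at day 17 and -1.11 ± 0.28 at day 10, which is 4.91-fold and 2.17-fold lower. H2-Ab1, the beta chain of I-A, spanned 63 to 89.4 CPM with entinostat at day 17, 172 to 281 with vehicle at day 17, 88.5 to 119 with entinostat at day 10 and 72.1 to 188 with vehicle at day 10. Its fold changes of -1.44 ± 0.24 and -0.60 ± 0.23 were the smaller of the I-A pair. H2-Eb1, the beta chain of I-E, spanned 21.6 to 45.1 CPM with entinostat at day 17, 129 to 223 with vehicle at day 17, 29.4 to 72.6 with entinostat at day 10 and 30.6 to 128 with vehicle at day 10. Its log2 fold changes were -2.36 ± 0.38 at day 17 and -1.01 ± 0.35 at day 10. Summed, the 3 classical genes gave 153 ± 23.4 CPM with entinostat at day 17, 592 ± 129 with vehicle at day 17, 212 ± 52 with entinostat at day 10 and 387 ± 154 with vehicle at day 10 (SD, n = 4). These libraries were made from sorted pools of cells, in which fewer cells of a type and less RNA per cell cannot be told apart. BALB/c carries the H-2d haplotype, and how reads of these polymorphic genes mapped to the mm10 reference was not tested.

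Cd74, the invariant chain, and the H2-DM genes, which load peptide, showed the same order of groups. Cd74 stood at 123, 98.6, 118 and 163 CPM with entinostat at day 17, 263, 354, 423 and 403 with vehicle at day 17, 208, 123, 165 and 204 with entinostat at day 10 and 324, 159, 322 and 309 with vehicle at day 10. Its log2 fold change of entinostat over vehicle was -1.52 ± 0.23 at day 17 and -0.67 ± 0.22 at day 10. At day 10 only vehicle replicate 2 lay within the range of the entinostat libraries. H2-DMa, the alpha chain of H2-DM, spanned 34.3 to 50.9 CPM with entinostat at day 17, 84.4 to 131 with vehicle at day 17, 37.6 to 66.5 with entinostat at day 10 and 57.8 to 101 with vehicle at day 10. Its log2 fold changes were -1.40 ± 0.21 at day 17 and -0.79 ± 0.20 at day 10, the smallest at day 17 among the 9 genes after H2-Oa. H2-DMa overlaps Brd2, a protein-coding gene, over 3122 bases, and reads of the pair cannot be separated there without strand. Brd2 averaged 313 CPM with entinostat and 353 CPM with vehicle at day 17. Its log2 fold changes were -0.17 ± 0.09 at day 17 and -0.10 ± 0.08 at day 10. The beta chains H2-DMb1 and H2-DMb2 are near-identical copies that can share or lose reads, so their separate values are uncertain. H2-DMb1 averaged 8.4 ± 3.62 CPM with entinostat at day 17, 50.2 ± 13.4 with vehicle at day 17, 10.8 ± 5.68 with entinostat at day 10 and 21.4 ± 9.23 with vehicle at day 10, and H2-DMb2 averaged 4.36 ± 1.28, 28.5 ± 9.7, 5.82 ± 3.09 and 14 ± 7.18 CPM in the same groups (SD, n = 4). Their log2 fold changes at day 17, -2.47 ± 0.44 for H2-DMb1 and -2.66 ± 0.52 for H2-DMb2, were the lowest of the 10, and at day 10 they were -0.98 ± 0.42 and -1.26 ± 0.48. Both genes had only 2 counts in entinostat day 17 replicate 3, and H2-DMb2 had 7 to 48 counts with entinostat at day 10.

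Ciita, the co-activator, was among the least abundant of the 10 per kilobase and uneven between libraries. It stood at 7.07, 8.89, 18.3 and 18.3 CPM with entinostat at day 17, 45.3, 48.2, 96.3 and 34 with vehicle at day 17, 11.2, 2.06, 7.71 and 21.1 with entinostat at day 10 and 48.9, 3.11, 24.9 and 30.9 with vehicle at day 10. At day 17 the groups did not overlap, and at day 10 the lowest vehicle library lay near the lowest entinostat library. Its log2 fold change of entinostat over vehicle was -2.16 ± 0.66 at day 17 and -1.33 ± 0.63 at day 10, with the widest errors of the 10 genes. Ciita overlaps Dexi over 858 bases and LOC115488669, a long non-coding RNA gene that was not counted, over 15932 bases. Reads of these pairs cannot be separated there without strand.

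Counted together, 9 of the 10 genes were called lower and 0 higher with entinostat at day 17, where 13.0% of all tested genes were called lower and 5.29% higher. At day 10, 3 were called lower (H2-Aa, Cd74 and H2-DMa) and 1 higher (H2-Ob), where 6.93% of all genes were called lower and 7.63% higher. As the genes were chosen on these contrasts, nothing is read from these counts. At day 17 the groups did not overlap for 9 genes, all lower with entinostat (13.6% of all genes did so), and H2-Ob alone overlapped. At day 10 they did not overlap for 1 gene, H2-Ob (7.81% of all genes were higher without overlap). The median log2 fold change of the 9 genes other than H2-Ob was -2.16 at day 17 and -0.98 at day 10, against -0.01 and 0.06 over all tested genes. At day 17 H2-Oa lost its call in 19 of 27 alternatives, among them limma-voom, RLE scaling, library size alone, the replicate block over all groups and 11 of the 16 that left out 1 library, which included each entinostat day 17 library, replicates 1, 2 and 3 of vehicle day 17, replicate 2 of entinostat day 10 and replicates 1, 2 and 4 of vehicle day 10. Ciita lost its day 17 call in 6, when any 1 entinostat day 17 library or replicate 1 or 3 of vehicle day 17 was left out, and the other 7 lost it in none. At day 10 Cd74 lost its call in 17 of 27, H2-Aa in 5, H2-DMa in 3 and H2-Ob in 0. The day 10 count was sensitive to single libraries. It was 8 when entinostat day 10 replicate 4 was left out and 7 when vehicle day 10 replicate 2 was left out. Over all genes 4151 and 1186 were called in these 2 settings. The count was 2 when replicate 1 or 2 of entinostat day 10, or replicate 3 of vehicle day 10, was left out (993, 1456 and 979 over all genes). It was 1 when replicate 3 of entinostat day 10 or replicate 1 of vehicle day 10 was left out (910 and 1079 over all genes). Among all genes, the day 10 contrast called 2534, and 1160 with the replicate number as a block within each day. The 4 genes were the same with that block.

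**Figure D3:**
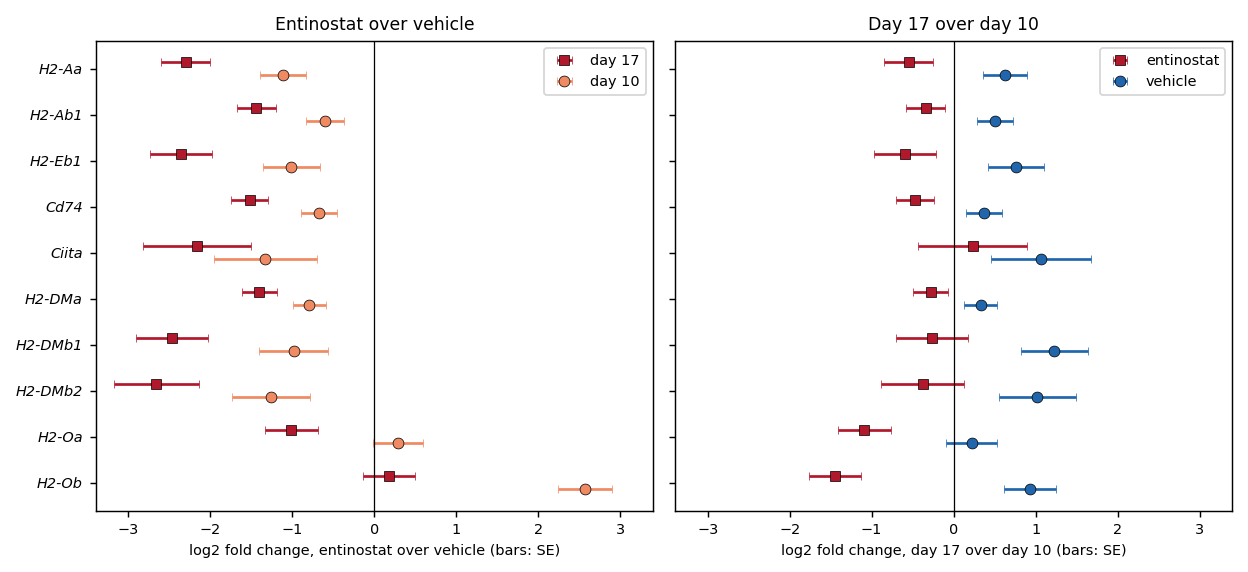
Log2 fold changes of the 10 genes with SE, entinostat over vehicle (left) at day 17 (squares) and day 10 (circles), and day 17 over day 10 (right) with entinostat (squares) and vehicle (circles). On the left all genes but H2-Ob lie below 0 at day 17, and H2-Ob is at 2.57 ± 0.33 at day 10; on the right H2-Ob is at -1.45 ± 0.32 with entinostat.

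Day 17 over day 10 separated the treatments in sign for most of the 10 genes. With entinostat 9 of 10 estimates were below 0, where the median over all tested genes was 0.03. Of the 10, 2 were called lower, H2-Ob and H2-Oa, where 10.5% of all tested genes were called lower and 3.26% higher. Nothing is read from these 2 calls, as the same libraries enter the drug contrasts on which all 10 genes were chosen. Adjusted p-values in this paragraph are descriptions for that reason. The other 8 ran between -0.59 ± 0.38 for H2-Eb1 and 0.23 ± 0.66 for Ciita (adjusted p = 0.341 and 0.874). With vehicle all 10 estimates were above 0, where the median over all tested genes was 0.13. None was called by edgeR, where 5.52% of all genes were called, 1.89% higher and 3.63% lower. DESeq2 called 2 of the 10 in that contrast (H2-DMb1 and H2-Ob), where it called 2116 of all 17414 tested genes. There limma-voom called 3 (H2-Aa, H2-DMb1 and H2-DMb2), where it called 2804 of all tested genes. The highest vehicle estimate was 1.23 ± 0.41 for H2-DMb1 (adjusted p = 0.0805), and without entinostat day 10 replicate 4, a library outside that contrast that shares its estimate of spread, it was called (adjusted p = 0.0488). The groups did not overlap for 4 of the 10 with vehicle, all higher at day 17 (4.78% of all genes were so, and 8.77% lower), and with entinostat for 2, H2-Ob and H2-Oa, both lower at day 17 (12.5% of all genes were so, and 8.94% higher). The interaction was below 0 for all 10 and called for H2-Ob alone, where 0.471% of all genes were called in either direction and 0.253% below 0. As it is the difference of the contrasts on which the genes were chosen, nothing is read from that count. For H2-Aa it was -1.18 ± 0.40 and for Cd74 -0.85 ± 0.31. The median interaction was -1.18 over the 9 genes other than H2-Ob and -0.20 over all tested genes.

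Levels between genes were compared per kilobase of exon, from the union of exons in GENCODE M21. Cd74 was the highest of the 10 in every group, at 74.7 CPM per kilobase with entinostat at day 17, 215 with vehicle at day 17, 104 with entinostat at day 10 and 166 with vehicle at day 10. H2-Ab1 was the next in every group, at 31.0, 86.1, 40.1 and 60.9 CPM per kilobase in the same order. H2-Ob was the lowest of the 10 with vehicle at both days, at 2.35 CPM per kilobase at day 17 and 1.23 at day 10. With entinostat it ranked 8 of 10 at day 17, at 2.71 CPM per kilobase, and 7 of 10 at day 10, at 7.32, above H2-DMb1 (6.40), H2-DMb2 (3.33) and Ciita (1.10). With the length of the curated transcript in place of the exon union, the ranks of H2-Ob and of Cd74 were the same, while H2-Aa (183 CPM per kilobase) stood just above H2-Ab1 (182) with vehicle at day 17. Within the middle of the order, neighbours such as H2-Aa (11.1 ± 1.89) and H2-DMa (11.7 ± 2.13) with entinostat at day 17 differed by less than their SD. That order depends on the length used, since per kilobase of curated transcript H2-Aa stood at 37.4 CPM and H2-DMa at 24.4 CPM.

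The lowest levels came close to the level of unrelated reads. Counts over 1412 odorant and vomeronasal receptor genes of known length, which lymphocytes are not known to use, were taken as that level. They lay at 0.890 CPM per kilobase with entinostat at day 17, 0.610 with vehicle at day 17, 0.681 with entinostat at day 10 and 0.299 with vehicle at day 10 (means). H2-Ob stood above them in all 16 libraries, by a median of 2.99 times with entinostat at day 17, 3.95 times with vehicle at day 17, 11.1 times with entinostat at day 10 and 3.98 times with vehicle at day 10. Ciita stood at 0.891 to 2.13 times the receptor level with entinostat at day 17 (median 1.54), 3.70 to 38.1 times with vehicle at day 17, 0.345 to 19.8 times with entinostat at day 10 (median 0.989) and 2.75 to 14.3 times with vehicle at day 10. In each entinostat group 1 of the 4 libraries was over 2 times that level, and at day 10 it was replicate 4, with Ciita at 21.1 CPM. H2-DMb2 stood at 1.61 to 3.98 times the receptor level with entinostat at day 17 and 1.32 to 44.0 times with entinostat at day 10. In each of these groups 3 of the 4 libraries were over 2 times. H2-DMb1 stood at 1.67 to 9.47 times with entinostat at day 17. The receptor level varied widely between libraries, at 0.643 to 1.18 CPM per kilobase with entinostat at day 17, 0.125 to 0.963 with vehicle at day 17, 0.112 to 1.05 with entinostat at day 10 and 0.119 to 0.381 with vehicle at day 10. Its means were higher with entinostat while the ranges overlapped, and its part in these values was not tested.

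Of the 10 genes, Ciita is on chromosome 16, Cd74 on chromosome 18 and the other 8 in the class II region of chromosome 17. H2-Ob lies at chr17:34238905-34245908 on the plus strand (GRCm38, RefSeq), with Tap1, Psmb8 and Tap2 on one side and Gm20506, H2-Ab1 and H2-Aa on the other. Gm20506, a long non-coding RNA gene and the nearest on that side, was not analysed here. None of the other 5 neighbours was called higher with entinostat at day 10. Tap2, the neighbour on the Tap1 side and a subunit of the class I peptide transporter, averaged 366 ± 23.7 CPM with entinostat at day 10 and 390.2 ± 29.5 CPM with vehicle at day 10 (SD, n = 4). Its log2 fold change was 0.01 ± 0.09 at day 17 (adjusted p = 0.976) and -0.09 ± 0.09 at day 10 (adjusted p = 0.496). Tap1, the other subunit, gave -0.01 ± 0.11 and -0.14 ± 0.11, and Psmb8, an immunoproteasome subunit, gave 0.34 ± 0.14 and -0.17 ± 0.14, none of them called. On the other side H2-Ab1 and H2-Aa were lower with entinostat, as given above. Of 7 class I and proteasome genes of the region, 1 was called higher with entinostat at day 17, Psmb9 (0.33 ± 0.11, adjusted p = 0.0409), and none at day 10. The H2-Ea-ps row, the pseudogene form of the I-E alpha chain in the reference strain, averaged 25.2 ± 4.18 CPM with entinostat at day 17, 141 ± 31.4 with vehicle at day 17, 35.5 ± 10.6 with entinostat at day 10 and 94.5 ± 43.2 with vehicle at day 10.

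**Figure D4:**
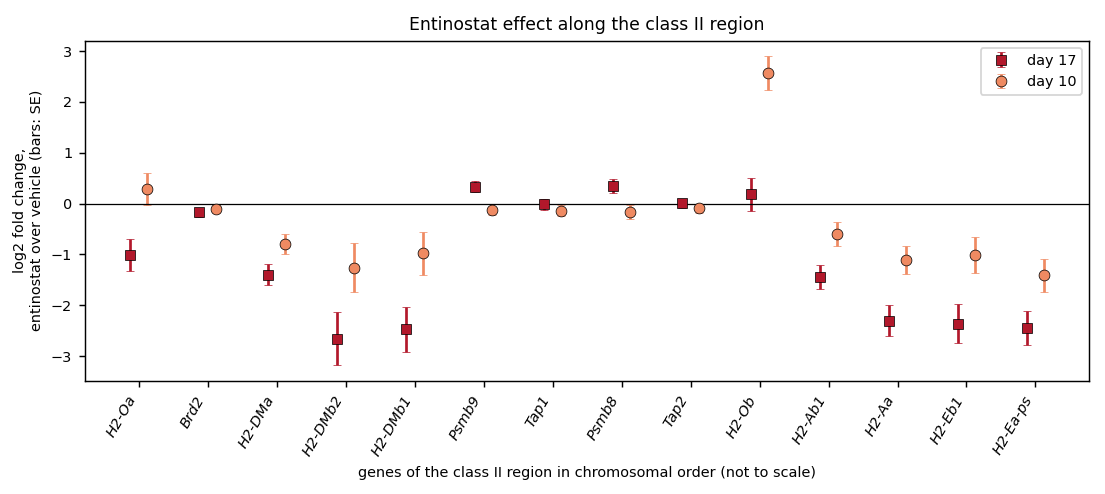
Log2 fold change of entinostat over vehicle with SE for tested genes of the class II region with a mean of at least 10 CPM, in chromosomal order and not to scale (squares day 17, circles day 10). H2-Ob stands at 2.57 ± 0.33 at day 10 between Tap2 (-0.09 ± 0.09) and H2-Ab1 (-0.60 ± 0.23).

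Regulators of class II transcription were counted from a list of 14 genes, all tested. This list, those of class I and peptide handling genes and the marker lists were chosen with earlier results of these data known. Adjusted p-values of their genes therefore describe the fit and are no independent support. With entinostat at day 17, 5 were called lower and 0 higher, where 13.0% of all genes were called lower, and at day 10, 3 were called lower and 0 higher, where 6.93% of all genes were called lower. The median log2 fold change of the list was -0.38 at day 17 and -0.25 at day 10. Spib, an Ets factor of plasmacytoid dendritic cells and B cells, averaged 6.79 ± 4.77 CPM with entinostat at day 17, 175 ± 11.4 with vehicle at day 17, 15.1 ± 12 with entinostat at day 10 and 102 ± 44.4 with vehicle at day 10. Its log2 fold change was -4.42 ± 0.50 (adjusted p = 1.01e-05) at day 17 and -2.70 ± 0.43 (adjusted p = 0.00123) at day 10. Spi1, the related factor of myeloid and B cells, fell by log2 fold changes of -4.85 ± 0.62 and -2.51 ± 0.51, and Irf8, a factor of dendritic cells, by -0.59 ± 0.17 and -1.18 ± 0.18. Rfx5, a subunit of the complex that binds the X box, was called lower at day 17 (-0.80 ± 0.23, adjusted p = 0.0215), as was Creb1 (-0.54 ± 0.12, adjusted p = 0.00512). The other subunits of that complex, Rfxank (-0.54 ± 0.26) and Rfxap (-0.46 ± 0.23), were not called at day 17. Within entinostat-treated tumours, day 17 over day 10, Irf8 rose (0.79 ± 0.18, adjusted p = 0.00574) while Creb1, Irf1 and Spi1 were among those that fell. With vehicle, Irf1 was the only one of the 14 called (-0.45 ± 0.11, adjusted p = 0.0219).

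Peptide handling was counted from 10 genes, all tested, of which 7 were called lower with entinostat at day 17 and 5 at day 10 (13.0% and 6.93% of all genes), with none higher. The medians were -1.33 and -0.86. Ctss, the protease that trims the invariant chain, gave -1.31 ± 0.13 at day 17 (adjusted p = 3.46e-06) and -0.93 ± 0.13 at day 10 (adjusted p = 3.69e-04). Ifi30, a lysosomal thiol reductase, gave -2.85 ± 0.42 (adjusted p = 1.47e-04) and -2.23 ± 0.39 (adjusted p = 0.00228). H2-Eb2, a class II beta chain gene of this list, had few counts, with 2.27 ± 2.63 CPM with entinostat at day 10 and 0.425 ± 0.391 CPM with vehicle at day 10 (SD, n = 4), a log2 fold change of 2.30 ± 1.03 that was not called (adjusted p = 0.129). Cd83, which keeps class II molecules at the surface of dendritic cells, stood at 6.11, 22.6, 13.3 and 11.2 CPM with entinostat at day 17, 142, 130, 149 and 109.7 with vehicle at day 17, 49.8, 28.1, 56.1 and 49.5 with entinostat at day 10 and 105, 41, 72.1 and 74.5 with vehicle at day 10. The groups did not overlap at day 17 and overlapped at day 10. The interaction for Cd83 was -2.62 ± 0.44 (adjusted p = 0.0188), the only one called in the list, and it was called in all 26 alternatives (adjusted p up to 0.0488). Cd83 was named by its small p from a list chosen with earlier results known, so its call is no independent support.

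Summed markers of dendritic cells had lower means with entinostat at both days, as had 8 of the 9 genes other than H2-Ob, H2-Oa being lower at day 17 alone. The summed level of 10 plasmacytoid dendritic cell markers, among them Siglech, Ccr9 and Tcf4, was 477 (406 to 536) CPM with entinostat at day 17, 2456 (2210 to 2664) with vehicle at day 17, 683 (489 to 955) with entinostat at day 10 and 2073 (1276 to 2496) with vehicle at day 10. The ranges did not overlap between treatments at either day, and 9 of the 10 markers were called lower at each day. Of all tested genes, 13.0% were called lower and 5.29% higher at day 17, and 6.93% lower and 7.63% higher at day 10. Of the plasmacytoid dendritic cell markers, Ly6d had a higher mean with entinostat at day 10 (24.8 CPM against 6.32 CPM with vehicle) and was not called there. Siglech, a surface lectin of these cells, gave -3.21 ± 0.31 at day 17 (adjusted p = 1.86e-06) and -2.42 ± 0.28 at day 10 (adjusted p = 9.47e-05). It is an example chosen after its values were seen, so these p-values are descriptions. The sum of 10 conventional dendritic cell markers was 265 (251 to 289), 870 (516 to 1247), 213 (167 to 271) and 613 (270.3 to 769) CPM in the same groups, with 5 of 10 called lower at day 17 and 4 at day 10. Of 10 macrophage markers 6 were tested, and 2 were called lower at day 17, while at day 10 Adgre1 was called higher and 2 were called lower. Vehicle day 10 replicate 2, the library low in class II counts, also had the lowest vehicle sums of plasmacytoid (1276 CPM) and conventional (270.3 CPM) dendritic cell markers. No list was at 0 throughout, except that C1qc was at 0 in all vehicle day 10 libraries. The gate as labelled names no class II or dendritic cell marker, and the part of such cells in the lower class II levels was not tested.

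**Figure D5:**
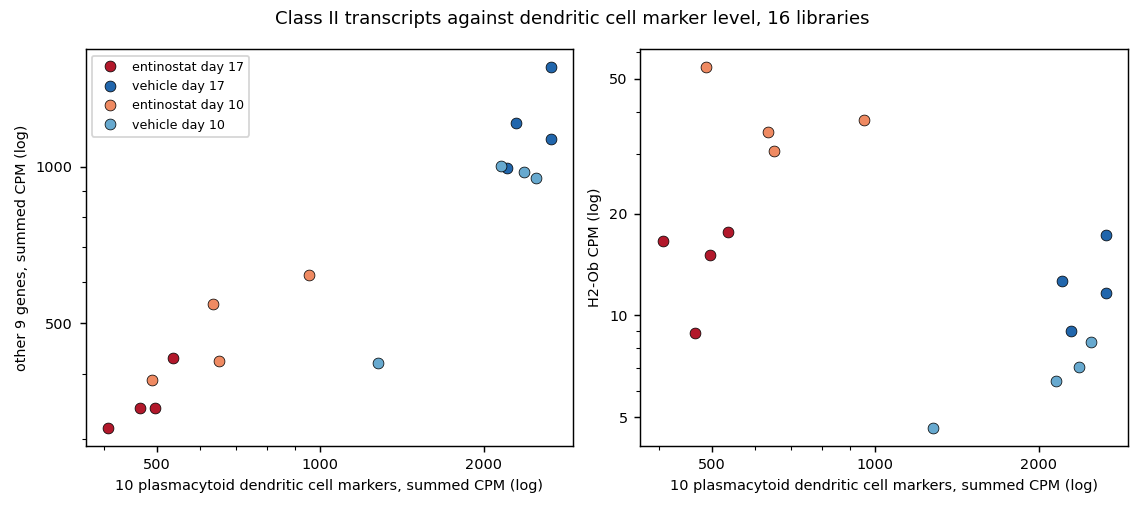
Summed CPM of 10 plasmacytoid dendritic cell markers (log axis) against the summed CPM of the 9 genes other than H2-Ob (left) and against H2-Ob (right), 1 point per library. The 4 entinostat day 10 libraries have marker sums of 489 to 955 CPM and H2-Ob at 30.5 to 54.1 CPM, whereas the 4 vehicle day 10 libraries have marker sums of 1276 to 2496 CPM and H2-Ob at 4.67 to 8.37 CPM. At day 17 the entinostat libraries have sums of 406 to 536 CPM and H2-Ob at 8.89 to 17.6 CPM. The vehicle day 17 libraries have sums of 2210 to 2664 CPM and H2-Ob at 9 to 17.2 CPM.

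The 4 libraries with the highest H2-Ob, those of entinostat day 10, had sums of plasmacytoid dendritic cell markers of 489 to 955 CPM. Entinostat day 17 libraries had sums of 406 to 536 CPM with H2-Ob at 8.89 to 17.6 CPM. Vehicle day 17 libraries had 2210 to 2664 CPM with H2-Ob at 9 to 17.2 CPM. A relation of H2-Ob to these sums was not tested. B cells are the cells best known for H2-Ob, and 9 of 10 B cell markers were in the table, 7 of them tested. Their sum was 101 (62.5 to 133) CPM with entinostat at day 17, 78.8 (40 to 111) with vehicle at day 17, 101 (40.4 to 149.9) with entinostat at day 10 and 61.5 (43.3 to 78) with vehicle at day 10, and all 4 ranges overlapped. With entinostat at day 10, 2 of the 7 were called higher, Ms4a1 (3.06 ± 0.73, adjusted p = 0.0137) and Cd22 (1.41 ± 0.44, adjusted p = 0.0401), and 1 lower, Cd79b (-1.27 ± 0.39, adjusted p = 0.04). Of all tested genes, 7.63% were called higher and 6.93% lower in that contrast. Ms4a1, which encodes CD20, stood at 45.7, 21.1, 35.5 and 2.86 CPM with entinostat at day 10 and 3.67, 1.81, 3.52 and 3.4 CPM with vehicle at day 10. In replicate 4 of entinostat day 10 Ms4a1 thus lay within the vehicle range. Cd22, an inhibitory receptor of B cells, stood at 11.5, 24.2, 15.4 and 18.1 CPM with entinostat at day 10 and 6.11, 3.63, 5.86 and 10.5 CPM with vehicle at day 10, and these groups did not overlap. At day 17 Ms4a1 averaged 29.5 CPM with entinostat and 12.3 CPM with vehicle, and Cd22 averaged 10.4 and 6.59 CPM. The part of B cells in the level of H2-Ob was not tested. Cd79a, a chain of the B cell receptor, spanned 0.772 to 2.78 CPM with entinostat at day 10 and 0.306 to 4.98 CPM with vehicle at day 10.

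The genes whose pattern over the 16 libraries was most like that of H2-Ob were Sqrdl, Cd22, Gstk1, Agpat9 and Rundc3a. Likeness was the root mean square difference of log2 CPM after centring each gene, among 10609 genes of at least 10 CPM on average, and it was 0.46, 0.48, 0.51, 0.59 and 0.59, against a median of 1.05 over all of them. The closest of the other 9 genes to H2-Ob was H2-Oa at 1.09, and the others ran between 1.28 for H2-Ab1 and 1.90 for Ciita. Rundc3a averaged 19.2 ± 2.99 CPM with entinostat at day 17, 12.1 ± 3.13 with vehicle at day 17, 40.3 ± 12.4 with entinostat at day 10 and 12.7 ± 7.23 with vehicle at day 10. Gstk1, a mitochondrial and peroxisomal glutathione transferase, averaged 15.3 ± 4.11, 11 ± 3.89, 23.7 ± 3.14 and 7.23 ± 2.03 CPM in the same groups, so its entinostat day 10 level was likewise the highest. For H2-Aa the closest were H2-Ea-ps (0.20), Themis2 (0.28), Gpr137b-ps (0.28), App (0.29) and Trib1 (0.30), and among the 10 genes H2-Eb1 (0.24), Cd74 (0.35), H2-Ab1 (0.39) and H2-DMb2 (0.39). H2-Oa (0.99) and H2-Ob (1.58) were the farthest from H2-Aa of the 10. These values describe likeness over shared libraries and carry no test.

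Within groups the genes were compared with H2-Aa by the side of the group mean on which each library lay. Ciita lay on the same side as H2-Aa in 15 of 16 libraries, H2-Eb1 in 14, H2-Ab1, Cd74 and H2-DMb2 in 13 each, H2-DMb1 in 12 and H2-DMa in 11. H2-Ob did so in 9 and H2-Oa in 6. In entinostat day 10 replicate 2, which had the highest H2-Ob level of all libraries (54.1 CPM), 7 of the 9 genes lay below their group mean. These are counts, with no test, over libraries that share depth and cell make-up within each preparation.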

How the data were processed

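The deposited table held whole-number counts per gene for 24028 genes in 16 libraries, whose totals differ, so the authors' values were read as unscaled. Per the labels' protocols, RNA of cells sorted from TS/A tumours was copied with SMART-seq v4 and tagmented with Nextera XT, which mark neither strand nor single molecules. The submitters' processing notes name STAR and mm10. How reads were assigned to genes, and whether duplicates were removed, is not given in the sources used here. The highest count of any gene lay between 1618 and 7303 in each library, so abundant genes may not scale with depth, and the 10 genes reached at most 1749. Entrez identifiers matched the RefSeq table of GRCm38 for 23968 genes, which gave positions.

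Groups, days and replicate numbers came from the labels. The 10 genes, the gene lists and the marker lists were chosen with earlier results of these data known. Genes named from lists are up to 4 of smallest p per list and comparison, with the neighbours of H2-Ob, the 5 genes most like H2-Ob and H2-Aa, and Hdac1, Hdac2 and Hdac3. Examples of marker genes were chosen after their values were seen. filterByExpr (minimum count 10) kept 17414 genes. Tests were made with edgeR 4.0.16 under R 4.3.3, as quasi-likelihood tests on TMM-scaled counts of all 16 libraries with 1 mean per group, which left 12 residual degrees of freedom at a biological coefficient of variation of 0.38. P-values were adjusted by Benjamini-Hochberg over all tested genes within each of 5 comparisons at 0.05. The fit was also run on simulated counts of independent libraries, with changes planted in the entinostat day 17 group alone. Libraries that deviate together were not simulated, so nothing is read from that run here. P-values measure the spread between libraries, which may be technical. Totals of 554593 to 6975904 counts per library set the counting error.

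Same-numbered libraries deviated together between treatments at day 10 (correlations 0.259, 0.26, 0.24 and 0.27 over 9772 genes of at least 16 CPM). On that ground, which the labels do not state, the numbers were used to pair libraries in the 2 forms of the replicate block alone. The block within each day joined day 17 libraries by number too, and the block over all groups joined all 4 groups. The main fits used no pairing, so the day 10 adjusted p-values, among them those of Ms4a1, Cd22 and Cd79b, do not allow for it. In no other comparison were all 4 over 0.1. Between treatments at day 17 the correlations were 0.143, -0.387, 0.15 and -0.0753. Between days they were 0.00767, 0.233, 0.154 and 0.197 with entinostat and -0.143, -0.391, -0.118 and -0.0957 with vehicle. The blocks therefore lacked that ground outside day 10. Libraries of a group differed by more than sampling noise (chi-square per degree of freedom at least 2.96). Other settings tried were DESeq2 1.42.0, limma-voom with quality weights (limma 3.58.1), RLE scaling or library size in place of TMM, a minimum count of 50 or no filter, a fit of only the groups compared, 2 forms of the replicate block, receptor reads as a covariate, each library left out in turn and, chosen after seeing the data, the shallowest library and vehicle day 10 replicate 2 left out together.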

Additional observations from a re-analysis of the deposited data

Results flagged for a closer look

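Values far from the rest of their group were looked for in 96 groups of 4 libraries and found in 10, where chance alone flags about 1 group in 20. Of these, 7 came from vehicle day 10 replicate 2, which was far below the other 3 vehicle libraries for H2-Aa (55.2 CPM), H2-Ab1 (72.1 CPM), Cd74 (159 CPM), the sum of the classical class II genes (158 CPM), the sum of the 9 genes other than H2-Ob (419 CPM), the sum of conventional dendritic cell markers (270.3 CPM) and the sum of receptor reads (638 CPM). H2-DMb1 was far above the rest in vehicle day 17 replicate 3 (70.0 CPM). The share of H2-Ob in the counts of the 10 genes was far above the rest in entinostat day 10 replicate 2 (12.2%), which had the highest H2-Ob level, and the sum of 3 epithelial markers was far above the rest in 1 entinostat day 10 library (42.4 CPM).

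The entinostat effect at day 17 was lower than that at day 10 by the interaction term for Cd83 (log2 difference -2.62, adjusted p = 0.0188, edgeR). Cd83 came from a list chosen with earlier results of these data known, so that p-value is no independent support. For H2-Ob the term was -2.38, a description without a p-value, since the gene was set apart for its entinostat effects at these days, and it missed the threshold in 10 of 26 alternatives.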

How the results depend on the processing

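Results were recomputed under 27 alternatives, 16 of which left out 1 library each. The median of the 9 genes other than H2-Ob moved by less than the SD of their 9 fold changes in every alternative and comparison. That SD is a spread between genes and not between libraries. Left out singly, libraries moved that median between -2.40 and -1.74 for entinostat at day 17, between -1.26 and -0.74 at day 10, and between -1.33 and -0.94 for the interaction. For H2-Ob, whose values chose it, calls are no sign of stability. Its vehicle day contrast was called with DESeq2 (0.95). Its interaction was not called with the replicate block within each day (-2.35), with the replicate block over all groups (-2.43) or without the shallowest library and vehicle day 10 replicate 2 (-2.29), and ranged between -2.51 and -2.18 with 1 library left out. The count of the 10 genes called at day 10 was 8 with limma-voom (6746 over all genes) and 2 with only the groups compared (1458 over all genes). It was 7 without the 2 libraries above (1191 over all genes) and 1 to 8 with 1 library left out (910 to 4151 over all genes). At day 17 it was 7 to 9 with 1 library left out (1946 to 3658 over all genes). For entinostat day 17 over day 10 it was 1 with library size alone (2108 over all genes, 2393 in the main fit). It was also 1 with only the groups compared and without the 2 libraries, and 1 to 2 with 1 left out (1748 to 2826 over all genes). H2-Oa lost its call in those settings. For vehicle the count was 2 with DESeq2 (2116 over all genes) and 3 with limma-voom (2804 over all genes). With the replicate block within each day it was 1, and with 1 left out 0 to 1 (212 to 2699 over all genes, 961 in the main fit). For the interaction it was 0 with either replicate block (34 and 39 over all genes) and without the 2 libraries (30 over all genes). With 1 left out it was 0 to 1 (14 to 103 over all genes). The block changed no other call of H2-Ob.

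Some estimates near 0 changed sign for entinostat day 17 over day 10. H2-DMb1 was 0.24 and H2-DMb2 0.19 with limma-voom. With 1 library left out, H2-DMb1 ranged between -0.52 and 0.07 and was above 0 only where entinostat day 10 replicate 4 was the one. Ciita ranged between -0.15 and 0.84 and was below 0 where replicate 4 of entinostat day 17 (-0.09) or replicate 2 of entinostat day 10 (-0.15) was the one. For vehicle, H2-Oa ranged between -0.04 and 0.35 and was below 0 where replicate 1 of vehicle day 17 was the one. The cause of these changes was not tested.

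Calls over all genes moved more. For entinostat at day 17 there were 4899 with limma-voom, 2065 without the 2 libraries and 1946 to 3658 with 1 left out. For day 10 there were 6746 with limma-voom, 1332 with a minimum count of 50, 1458 with only the groups compared, 1160 and 1561 with the replicate blocks, 1689 with receptor reads as a covariate, 1191 without the 2 libraries and 910 to 4151 with 1 left out. For entinostat day 17 over day 10 there were 3934 with limma-voom and 1748 to 2826 with 1 left out. For vehicle there were 2116 with DESeq2, 2804 with limma-voom, 490 with library size alone, 636 with only the groups compared, 455 without the 2 libraries and 212 to 2699 with 1 left out. For the interaction there were 495 with DESeq2, 244 with limma-voom, 130 with RLE scaling, 144 with library size alone, 34 with no filter, 285 with a minimum count of 50, 34 and 39 with the replicate blocks, 179 with the covariate, 30 without the 2 libraries and 14 to 103 with 1 left out. With library size alone in place of TMM, the median log2 fold change of all genes was 0.14 rather than -0.01 for entinostat at day 17 and 0.22 rather than 0.06 at day 10. The share of called genes that were higher was 48.2% rather than 28.9% at day 17 (40.7% with RLE) and 76.0% rather than 52.4% at day 10. For day 17 over day 10 it was 43.3% rather than 23.7% with entinostat and 59.4% rather than 34.2% with vehicle. For the interaction it was 58.5% with RLE rather than 46.3%.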

Other observations

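Entinostat inhibits the class I histone deacetylases, whose transcripts were measured in the same libraries. Hdac1 was higher with entinostat at day 17, at 149 CPM on average against 113 CPM with vehicle (log2 fold change 0.39 ± 0.11, adjusted p = 0.0217, edgeR), and at day 10 it stood at 127 CPM with entinostat and 129.6 CPM with vehicle (-0.03 ± 0.11, adjusted p = 0.843). Hdac2 and Hdac3 were not called at either day. Cd4, which the gate selects against, was lower with entinostat at day 17 (7.49 CPM against 48.1 CPM with vehicle, -2.75 ± 0.33, adjusted p = 2.03e-05) and at day 10 (9.64 CPM against 31.0 CPM with vehicle, -1.66 ± 0.30, adjusted p = 0.00297). Of 3 CD4 T cell markers it alone was called, where 13.0% and 6.93% of all genes were called lower. Foxp3 also had lower means with entinostat, while Zbtb7b had higher means (21.0 against 17.6 CPM at day 17, 24.5 against 19.3 CPM at day 10). Cd4 is an example chosen after its values were seen, so its p-values are descriptions.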
